A study of Homo sapiens with 14 samples.

Results

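The loci described here are the smallest that the deposited tables list: 2478 of 35671 loci (6.95%), each on chromosomes 1 to 22, with exactly 1 transcript and a length of at most 120 bases. They were chosen by size and transcript number alone, with no measured value, and 54 loci of the same size inside 3 regions were left out (chr7:148638000-148685000, chr14:101190000-101540000 and chr15:25200000-25530000). RNA came from HEK293T cells, a human embryonic kidney line that carries the SV40 large T antigen, as wild type and with the histone methyltransferase gene SETD2 knocked out, with 3 RNA libraries listed for each genotype. No source used here says whether the knockout line is 1 clone or whether libraries of a genotype were separate cultures, so a spread among libraries could be technical. How far the deposited p-values reflect that spread at these loci was not tested. In 1 wild type RNA library the extraction label describes ChIP. The values are FPKM (fragments mapped to a transcript, scaled for its length and for library size), 1 per transcript and group, and each group has a value in 2 deposited tables, a table of tests and a tracking table with bounds. Values are those of the table of tests unless the tracking table is named.

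Loci of this size can hold, among others, classes of short non-coding RNA that work in RNA processing or silencing. Small nucleolar RNAs guide the chemical modification of ribosomal and spliceosomal RNA and are mostly cut from introns of host genes, U6 is the RNA at the catalytic centre of the spliceosome, Y RNAs bind the Ro60 protein, and microRNA hairpins are trimmed to the mature strands that guide silencing of messenger RNA. SETD2 trimethylates histone H3 at lysine 36 over the bodies of transcribed genes. U6 and the Y RNAs also have many near-identical copies across the human genome. No source used here says how reads that match several copies were counted, so a value at 1 locus may hold reads of another.

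The class of a locus could not be checked, because the files give no gene name or class and 0 of the transcript IDs matched the tables of names used here. The name of the group, which refers to small nucleolar RNA, U6, Y RNA and microRNA size, covers only part of the lengths found. The lengths ran from 11 to 120 bases with a median of 97, and 149 loci were no longer than 60 bases, 67 of them on chromosome 14 and 15 each on chromosomes 7 and 15. The commonest length was 107 bases, which is that of U6 RNA, with 221 loci, followed by 104 bases with 145 and 102 bases with 117. The shortest loci, down to 11 bases, are shorter than any of the named classes. No sequences are shown, because no reference of the hg19 build was used here, and loci are named by their hg19 position.

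Most of these loci were listed at 0. A value above 0 in any of the 4 columns was listed for 77 of the 2478 loci (3.11%), and the other 2401 stood at 0 throughout. Single-transcript loci of the next size class, longer than 120 and up to 350 bases, had a value in 19.98% of 2362 cases, and those of the class after it, up to 3000 bases, in 43.0% of 7463. Over all 204092 transcripts the share was 63.3%. Across these size classes, the share with a value was lower the smaller the loci. Per the labels, a column kit and a kit that removes ribosomal RNA were used before a standard library kit, with no step for small RNA named, and the part of this in the zeros was not tested.

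Detection also varied with length inside the set. None of the 149 loci of up to 60 bases had a value, against 8 of 428 (1.87%) at 61 to 80 bases, 35 of 806 (4.34%) at 81 to 100 bases and 34 of 1095 (3.11%) above 100 bases. At the commonest length, 107 bases, 5 of 221 loci had a value. Around the upper limit of the set, 4 of 98 loci of 116 to 120 bases had a value, and so did 4 of 54 loci just outside it, of up to 125 bases.

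**Figure D1:**
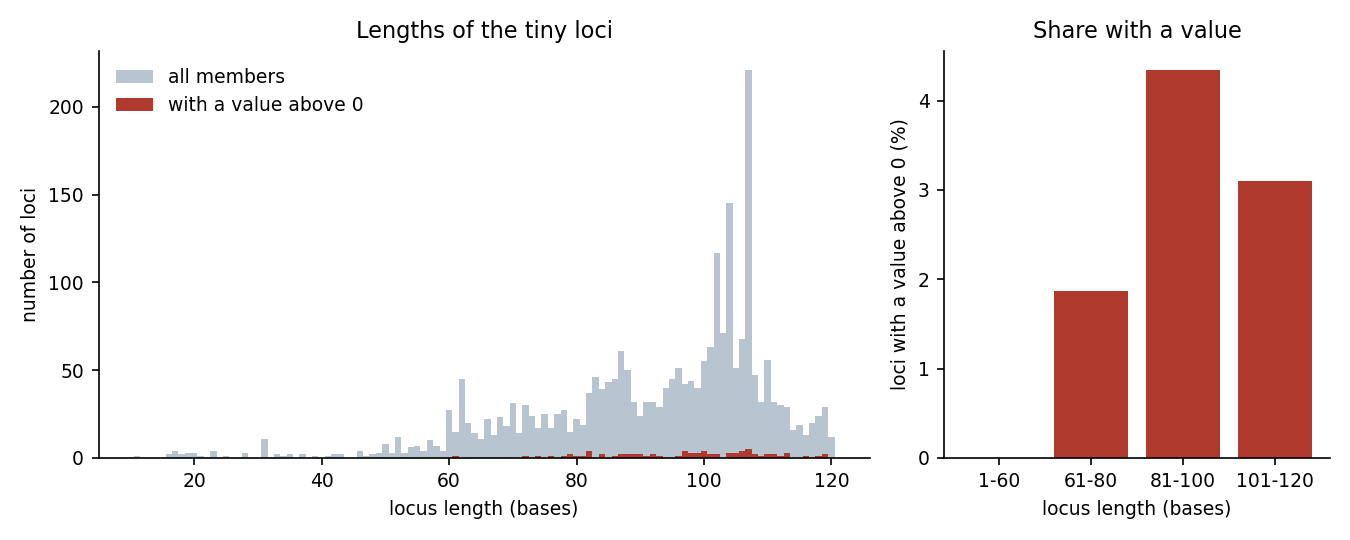
The left panel plots the number of loci at each length in bases, in grey for all 2478 and in red for the 77 with a value above 0, and the right panel the share with a value in 4 classes of length. The peak at 107 bases holds 221 loci, of which 5 had a value, and the class of up to 60 bases holds no locus with a value.

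The 2 genotypes differed in how many loci stood at 0. In the table of tests 69 loci had a wild type value above 0 (2.78%) and 31 had a knockout value above 0 (1.25%), and each of these values was at least 1 FPKM. By the steps described below, the smallest value above 0 at 120 bases is 1.93 FPKM, so any value above 0 passes that level. A value of 0 in the knockout beside a wild type value above 0 occurred at 43 loci, the opposite at 5, values above 0 in both at 26 and zeros in both at 2404. Zeros in the knockout alone were thus 62.3% of the loci with a wild type value, against 44.0% in the class of up to 350 bases, 28.4% in that of up to 3000 bases and 25.2% over all transcripts. In the tracking table the same split was less uneven, with 40 loci above 0 in the knockout, 37 at 0 in the knockout alone and 8 at 0 in the wild type alone. Whether the groups differ in zeros cannot be tested from 1 value per group.

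The values were not spread evenly but could be written as small numbers of whole steps. At a given length a value was a whole multiple of a smallest unit, or a sum of such multiples of 2 or 3 units that differ slightly, and each unit grew as the locus got shorter. A run of whole multiples of 1 unit is called a ladder here. No source used here says what a step is, and the reading of a step as 1 counted fragment is used below only where it is named. The unit followed 1 divided by the number of places that a fragment of 49 bases or more can take within the locus, with fragment lengths weighted by a normal curve of mean 200 and SD 80, which are the default settings of Cufflinks and its companion Cuffdiff. With this curve, 62 of 62 wild type values and 37 of 37 knockout values that belong to a single ladder, taken from single-transcript loci of at most 160 bases, were whole multiples to within 0.1%. No other shortest fragment gave more than 9.68% in the wild type or 18.9% in the knockout. The shortest fragment was chosen on the wild type values after they were seen, and the knockout values were not used to choose it.

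In series a, described below, 1 step was worth 97.7 FPKM at 61 bases, 14.5 FPKM at 80 bases, 3.52 FPKM at 107 bases and 2.15 FPKM at 120 bases. A level of 3 steps, taken here as the limit that a value of 0 allows, was in the wild type 281.7 FPKM at 61 bases and 10.1 FPKM at 107 bases, and in the knockout table of tests it was 522.9 and 18.8 FPKM. The shorter the locus, the higher the level that can be listed at 0. Loci of under 49 bases, of which there were 55, have no place for such a fragment, and each was listed at 0.

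**Figure D2:**
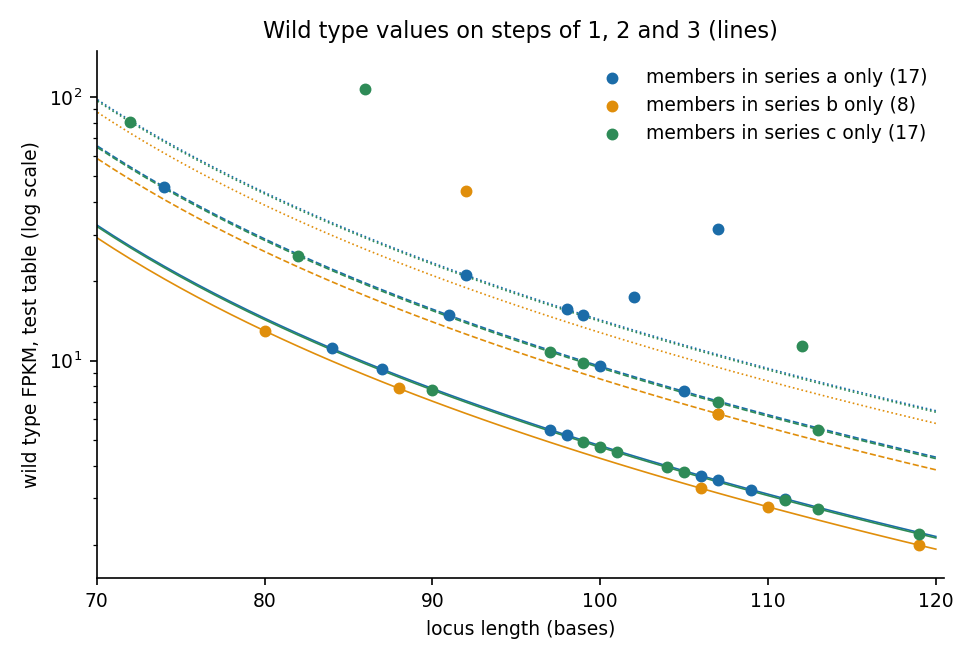
Wild type FPKM in the table of tests (log scale) against locus length in bases for the 42 loci that belong to a single ladder, coloured by series, with solid, dashed and dotted lines at 1, 2 and 3 steps of each series. The points lie on the lines or, for the highest, on whole multiples above them, and 1 step of series a falls from 14.5 FPKM at 80 bases to 3.52 FPKM at 107 bases.

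Each group's values could be written as sums over 3 such ladders, called series a, b and c in the wild type and d, e and f in the knockout. The ladders were told apart by their unit and by the ratio of the tracking value to the test value, 0.974, 0.975 and 0.980 for series a, b and c and 0.6516 and 0.6524 for d and e. Series f appeared only in the tracking table. The number of series equals the number of libraries listed for each genotype, but no source ties a series to a library. The steps of all 3 series were found without ambiguity at 67 of the 69 loci with a wild type value. They were also found at each of the 40 loci with a knockout value in the tracking table. A value of 0 has 0 steps by definition, and with such loci counted the numbers are 75 of 77 and 77 of 77. The 2 exceptions are the loci with the most steps, chr21:9826203-9826263 with 80 to 84 wild type steps and chr13:41384902-41384997 with 139 to 151.

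A series held few steps at these loci. Series a had a step at 39 of the 75 loci and 135 steps in all, series b at 29 with 116, and series c at 40 with 176. In the knockout, series d had a step at 15 of the 77 loci with 131 steps, series e at 22 with 138 and series f at 18 with 111. The knockout sums include the 2 loci that the wild type sums leave out, so the sums of the groups are not over the same loci. Those 2 loci held 30 and 78 knockout steps, and 80 to 84 and 139 to 151 wild type steps. Set against series b on the tracking scale, the unit was 1.12 in a, 1.11 in c, 1.54 in d, 1.13 in e and 2.98 in f. On that scale a step was thus worth most FPKM in series d and f, and series e was close to a and c. In the table of tests the unit was larger in both knockout series. At 80 bases it was 14.5, 13.0 and 14.3 FPKM in a, b and c, and 29.9 and 21.8 FPKM in d and e. The larger unit, and the table of tests holding 2 knockout series against 3 wild type series, moved with the larger number of knockout zeros, and their part in it was not tested.

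Most detected loci rested on a single series. Of 67 resolved wild type values, 42 had all their steps in 1 series (62.7%), 9 in 2 series and 16 in 3, and 41 rested on 3 steps or fewer (61.2%), 22 of them on 1 step. Of 40 knockout values in the tracking table, 27 rested on 1 series, 11 on 2 and 2 on 3, and 14 on 3 steps or fewer (35.0%). The median was 3 steps in the wild type, without the 2 unresolved loci, and 5 in the knockout, with them. Counting both genotypes, 40 of the 75 resolved loci had steps in 1 series of the 6, and 1 locus had steps in all 6.

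**Figure D3:**
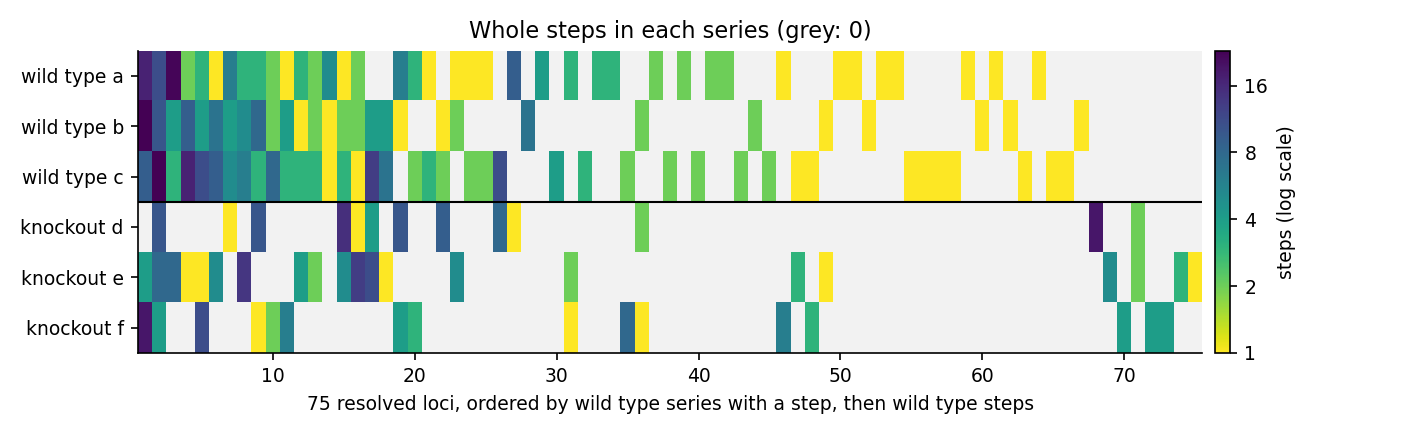
Whole steps of the 75 resolved loci (columns) in the 6 series (rows), on a log colour scale from 1 step in yellow to 23 in dark purple, with grey for 0. The loci with steps in several wild type series stand at the left, and most columns further right have a single coloured cell.

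The locus detected in every series was chr6:111290976-111291075, of 100 bases. It had 11, 10 and 23 steps in series a, b and c and 10, 8 and 4 in series d, e and f. Written as the level of each series on the tracking scale (3 times the share of the group value that the series holds), these are 152.9, 124.6 and 318.0 FPKM in the wild type and 191.8, 112.2 and 148.6 FPKM in the knockout. The levels of the 2 groups overlapped, with series c the highest and series e the lowest. The group values were 203.1 FPKM in the wild type and 155.4 FPKM in the knockout (p = 0.624 in the authors' deposited table, from Cuffdiff). It lies 1882 bases from a locus of 3 transcripts that stood at 57.3 FPKM in the wild type and 46.1 FPKM in the knockout.

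Over all transcripts in the authors' deposited table, q passed 0.05 for 0.255% of 85852 tested, 0.0629% higher in the knockout and 0.192% lower. Of these tiny loci 47 were tested and 1 was called (2.13% of those tested), higher in the knockout, with 0 called lower. In either direction, 1.82% of those tested were called in the class of up to 350 bases and 2.70% in that of up to 3000 bases. The called share of the tiny loci was thus near that of the larger single-transcript loci. At an unadjusted p under 0.05 from Cuffdiff there were 12 loci, 4 higher and 8 lower in the knockout, against 2.38% of all transcripts tested (0.817% higher and 1.57% lower). The share was 25.5% of the tested tiny loci, 27.4% in the class of up to 350 bases and 15.1% in that of up to 3000 bases, so it was of the same order in the next size class. No other test of these loci was run.

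The locus called higher was chr1:174965661-174965766, of 106 bases. In the authors' deposited table its knockout value was 143.5 FPKM and its wild type value 0 (p = 5e-05, q = 0.0220), and in the tracking table the knockout value was 93.5 FPKM, with bounds of 88.9 and 98.1. Its steps were 19, all in series d, which alone stood at 280.5 FPKM, and series e and f had none, like the 3 wild type series. The knockout series therefore spanned from 0 to the only value above 0, and 2 of the 3 equalled the wild type. If each step is 1 counted fragment, the 95% exact Poisson interval is 11.4 to 29.7 counts, 0.602 to 1.56 times the value, and the deposited bounds span 0.951 to 1.05 times the value. Such intervals cover counting error only, and without molecular identifiers the fragments may not be independent molecules.

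Each of the 12 low p-values belonged to a locus listed at 0 in a group. Of the 26 tested loci with a value above 0 in both groups none had p under 0.05, and the lowest was 0.0513 in the authors' deposited table. Of 16 tested loci at 0 in the knockout alone 8 had p under 0.05, and of 5 at 0 in the wild type alone 4 had. In the class of up to 350 bases the shares were 8.02% of 212 loci above 0 in both groups, 89.7% of 39 at 0 in the knockout alone and 100% of 23 at 0 in the wild type alone. Over all transcripts tested, 4.30% of those at 0 in the knockout alone had p under 0.05, and 2.45% of those at 0 in the wild type alone. Of the 8 tiny loci with low p and a knockout value of 0, 3 had a knockout value above 0 in the tracking table.

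The next lowest p after the called locus, named here after its value was seen, was at chr12:98999652-98999738, of 87 bases (p = 0.0004, q = 0.113 in the authors' deposited table). Its wild type value was 108.6 FPKM and its knockout value 0, but 48.3 FPKM in the tracking table. Its steps were 2, 2 and 8 in the wild type series and 2 in series f alone in the knockout. By series the levels were 54.3, 48.7 and 215.9 FPKM in the wild type and 0, 0 and 145.0 FPKM in the knockout, so that the groups overlapped.

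The highest wild type value, and the highest knockout value of the tracking table, lay at chr21:9826203-9826263, of 61 bases, the shortest locus with any value. It stood at 7792 FPKM in the wild type and 604.2 FPKM in the knockout in the table of tests, a 12.9-fold lower knockout value (p = 0.0513, q = 0.991 in the authors' deposited table). In the tracking table it stood at 7595 FPKM in the wild type (743 to 14448) and at 7258 FPKM in the knockout (7228 to 7289), which are nearly equal. Its knockout steps were 3 in series d, 0 in e and 27 in f, or 1181, 0 and 20594 FPKM by series. The knockout series thus differed from each other by more than the 2 group values did in either table.

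That locus also decides the sums over the set. It held 65.8% of the wild type sum of 11834 FPKM and 15.6% of the knockout sum of 3880 FPKM in the table of tests, and 68.0% of the knockout sum of 10678 FPKM in the tracking table. Without it the wild type sum was 4042 FPKM and the knockout sum 3276 FPKM, or 3419 FPKM in the tracking table. The tiny loci together held 0.874% of all wild type FPKM and 0.305% of all knockout FPKM in the table of tests. It lies 191 bases from another single-transcript locus, chr21:9825832-9826011, which stood at 128.8 FPKM in the wild type and 100.9 FPKM in the knockout.

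The second locus by mean level, and the highest in the knockout of the table of tests, was chr13:41384902-41384997, of 96 bases. It had nearly the same value in the 2 groups, at 778.3 FPKM in the wild type and 764.3 FPKM in the knockout (p = 0.956 in the authors' deposited table). Its knockout steps were 36, 39 and 3, or 834.0, 661.0 and 134.6 FPKM in series d, e and f, so the series absent from the table of tests stood well below the other two. At chr22:42319226-42319301, of 76 bases, the wild type stood at 555.3 FPKM and the knockout at 234.4 FPKM, 2.37-fold lower (p = 0.335 in the authors' deposited table, from Cuffdiff). Here series a was far above the other wild type series, at 1250 against 203.8 and 169.5 FPKM, and series e alone carried the knockout at 458.8 FPKM. The knockout series at 0 and at 458.8 FPKM lay on both sides of b and c. The deposited wild type bounds of this locus ran from 0 to 1269 FPKM.

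At 3 further loci of high mean level the groups also overlapped by series. At chr5:140105743-140105831 the wild type series stood at 0, 86.8 and 312.9 FPKM and the knockout series at 133.6, 268.7 and 0 FPKM. At chr3:50712511-50712594 they stood at 195.2, 29.2 and 0 FPKM and at 448.8, 0 and 347.8 FPKM. At chr22:42948194-42948279 a single series in each group carried the value, c at 314.9 FPKM and d at 317.7 FPKM. The group values of this last locus differed by 1.52-fold in the table of tests, 162.5 FPKM in the knockout against 107.1 FPKM in the wild type, although those 2 series were nearly equal.

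The widest differences between groups with values above 0 in both, on a log2(FPKM + 1) scale in the table of tests, included none that passed the authors' test. The largest in the direction of the wild type was chr11:133768399-133768476, of 78 bases, at 448.8 FPKM against 25.2 FPKM in the knockout, 17.8-fold lower (p = 0.239, q = 0.991 in the authors' deposited table). Its wild type steps were 2, 9 and 17 and its knockout had 1 step, in series e, so that the wild type series stood at 97.7, 394.0 and 825.7 FPKM and the knockout series at 0, 49.3 and 0 FPKM. All 3 wild type series were above all 3 knockout series here. The single knockout step allows a wide range for that group's level, since 1 step, if it is 1 counted fragment, has a 95% Poisson interval of 0.0253 to 5.57 counts.

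A pair of loci that were low in the knockout of the table of tests were not low in the tracking table. At chr3:125247088-125247193 the knockout stood at 5.52 FPKM and the wild type at 63.9 FPKM, 11.6-fold apart, and the tracking knockout value was 108.5 FPKM, above the wild type. At chr1:54990497-54990604 the knockout stood at 20.3 FPKM and the wild type at 156.9 FPKM, 7.71-fold apart, and the tracking knockout value was 180.1 FPKM. In both the difference lay in series f, which had 11 of the 12 knockout steps of the first locus and 19 of the 23 of the second. The direction of these differences thus depends on which deposited column is read.

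Of the 5 widest differences in the direction of the knockout, 3 rested mainly on series d and 2 on series e. At chr9:140017961-140018060, of 100 bases, the knockout stood at 182.99 FPKM and the wild type at 27.4 FPKM, 6.68-fold apart (p = 0.104 in the authors' deposited table). Its series stood at 13.9, 24.9 and 41.5 FPKM in the wild type and at 287.6, 70.2 and 0 FPKM in the knockout, so 2 knockout series were above the wild type and 1 below it. At chr10:106028080-106028177 the knockout stood at 96.9 FPKM, all of it in series d with 9 steps, and the wild type at 14.99 FPKM with 3 steps. At chr20:5079033-5079122 the values of 35.4 and 7.74 FPKM rested on 3 steps of series e and 1 step of series c.

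Over the 26 loci with a value above 0 in both groups the log2 fold, knockout over wild type, had a median of -0.01, with quartiles of -1.91 and 1.09, and 13 loci lay on each side of 0. The median over all transcripts by the same rule was 0.11, so the median of the tiny loci was near that of the rest. Their spread was wide. Within 2-fold of equality stood 9 of the 26 loci (34.6%), against 72.8% in the class of up to 350 bases, 87.8% in that of up to 3000 bases and 67.6% over all transcripts. With the tracking values the median was 0.20 over 32 loci.

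The 2 knockout columns gave different values for most of the tiny loci. The ratio of the tracking value to the test value ran from 0.652 to 19.7 over the 31 loci with a knockout test value, with a median of 0.652, while the same ratio in the wild type lay between 0.974 and 0.980 for all 69 loci. Of the 31, 22 stood below 0.66 (71.0%), 3 between 0.66 and 1, and 6 above 1. The 22 had no step in series f, and a locus with steps in series d and e alone has its ratio fixed at about 0.652. Such a locus cannot come within 10% in the comparison below, so that count partly restates the absence of series f from the table of tests. The share below 0.66 was 48.0% in the class of up to 350 bases, 31.4% in that of up to 3000 bases and 37.5% over all transcripts. After scaling by the wild type ratio of 0.976, the 2 knockout columns were within 10% of each other at 1 of the 31 loci (3.23%), the chr6 locus with steps in every series, against 13.9%, 24.9% and 18.1% of the same comparison sets.

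A further 9 loci were at 0 in the knockout of the table of tests and above 0 in the tracking table, 11.7% of the 77 loci with a value, against 4.03% in the class of up to 350 bases, 4.02% in that of up to 3000 bases and 5.20% over all transcripts. The reverse occurred at 0 loci, and the wild type had 0 loci of either kind. The 5 with the highest tracking values were chr17:58119722-58119803 at 197.7 FPKM, chr1:228649775-228649853 at 161.9 FPKM, chr13:20449327-20449425 at 103.7 FPKM, chr8:66504966-66505055 at 61.2 FPKM and chr12:50678449-50678545 at 57 FPKM. Their knockout steps, from 3 to 8 a locus, were all in series f. This follows from how these loci were picked, because a locus at 0 in the knockout test column can hold steps in series f only. The wild type values of these 5 in the table of tests were 95.5, 0, 9.84, 39.0 and 0 FPKM.

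Across loci, Spearman's rho between the 2 knockout columns was 0.808 over 31 loci, and between the 2 wild type columns it was 1 over 69 loci. These correlations describe columns that share libraries and locus lengths, and loci are not replicates.

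**Figure D4:**
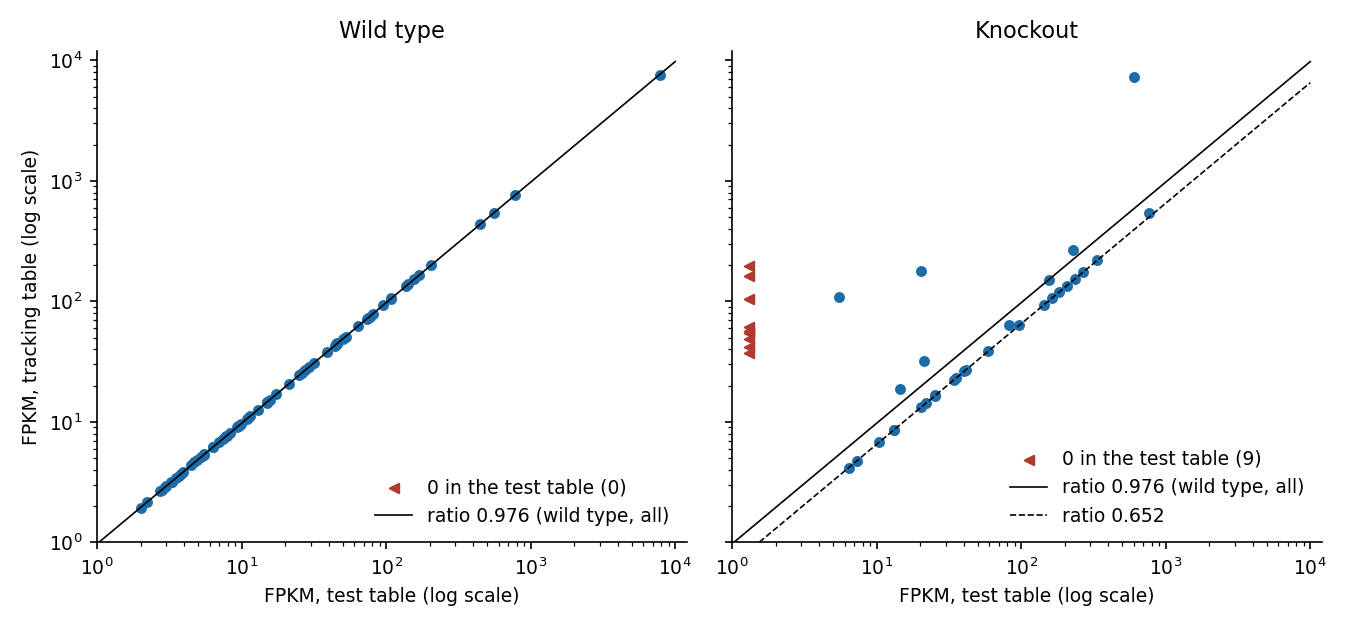
The tracking-table FPKM against the test-table FPKM (both log scales), 1 point a locus, for the wild type on the left and the knockout on the right, with lines at ratios of 0.976 and 0.652. All wild type points lie on the line, most knockout points lie on the lower line, and 9 knockout loci at 0 in the table of tests are drawn as triangles at the left edge.

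The deposited bounds were narrow beside these differences. From the middle to a bound, the interval spanned a median of 7.01% of the value for the knockout and 19.7% for the wild type, against 78.0% and 112.5% in the class of up to 350 bases and 105.7% and 124.9% in that of up to 3000 bases. After scaling by the wild type ratio, the knockout value of the table of tests fell outside the tracking interval at 29 of 31 loci (93.5%), 23 above and 6 below, against 10.7% and 0.0434% in the larger size classes and 0.212% over all transcripts. In the wild type this occurred at 0 of 69. A knockout locus without steps in series f has its ratio fixed at about 0.652, so a narrow interval there leaves the scaled test value outside.

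The bounds were also narrower than the number of steps allows if a step is 1 counted fragment. They were narrower than the exact 95% Poisson interval at 38 of 40 knockout values and at 51 of 67 resolved wild type values. For values of a single step the widest deposited bounds were 0.611 to 1.39 times the value in the wild type (22 loci) and 0.804 to 1.196 in the knockout (6 loci), where 1 count allows 0.0253 to 5.57 times. Among resolved wild type values, a lower bound of 0 appeared at 16 of 16 loci with steps in all 3 series and at 0 of the 51 others. The 2 unresolved loci, which had the most wild type steps, had lower bounds of 743 and 209 FPKM. In the knockout it appeared at 1 of 2 loci with steps in 3 series and at 0 of the 38 others. No source used here gives the confidence level of these bounds.

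A run of 5 tiny loci lies on chromosome 17 between 58119722 and 58120466, with gaps of 103, 66, 32 and 142 bases, beside a locus of 12 transcripts at chr17:58120555-58156292 that stood at 24.0 FPKM in the wild type and 28.0 FPKM in the knockout. Of the 5 loci 4 had values. In the order of the chromosome the wild type values were 95.5, 169.7, 74.3, 0 and 142.0 FPKM and the knockout values 0, 267.0, 336.6, 0 and 20.4 FPKM in the table of tests. The group values of neighbours thus differed in opposite directions, 4.53-fold higher in the knockout at the third locus and 6.97-fold lower at the fifth. Neither difference was called (p = 0.123 and 0.299 in the authors' deposited table, from Cuffdiff). The knockout value of the fifth locus rested on 1 step, in series e. Its wild type series stood at 0, 141.8 and 275.2 FPKM and its knockout series at 0, 39.9 and 0 FPKM. At the third locus the levels of the groups also overlapped by series. Summed over the run, the values were 481.6 FPKM in the wild type and 624.0 FPKM in the knockout, and 470.7 and 604.8 FPKM in the tracking table. The steps summed to 6, 15 and 17 in the wild type series and 1, 28 and 6 in the knockout series, so 1 knockout series was above and another below every wild type series in number of steps.

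Loci with a value lay nearer to other expressed loci than loci at 0. The median distance to the nearest locus outside the set with at least 1 FPKM in the wild type was 3029 bases for the 77 loci with a value and 49515 bases for the 2401 without. Such a neighbour stood within 1000 bases of 22 of the 77 (28.6%) and of 64 of the 2401 (2.67%), and within 10000 bases of 72.7% and 19.5%. Among the 17 loci with steps in 4 or more series, 7 (41.2%) had one within 1000 bases. Of the 2478 tiny loci 0 overlapped another locus in the tables. The rule keeps loci of exactly 1 transcript, so a tiny RNA listed in the same locus as its host was left out by the rule. The 0 overlaps may follow from that and are not an observation on RNA cut from introns. Such RNA is among these loci only where its host is not listed over the same position.

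**Figure D5:**
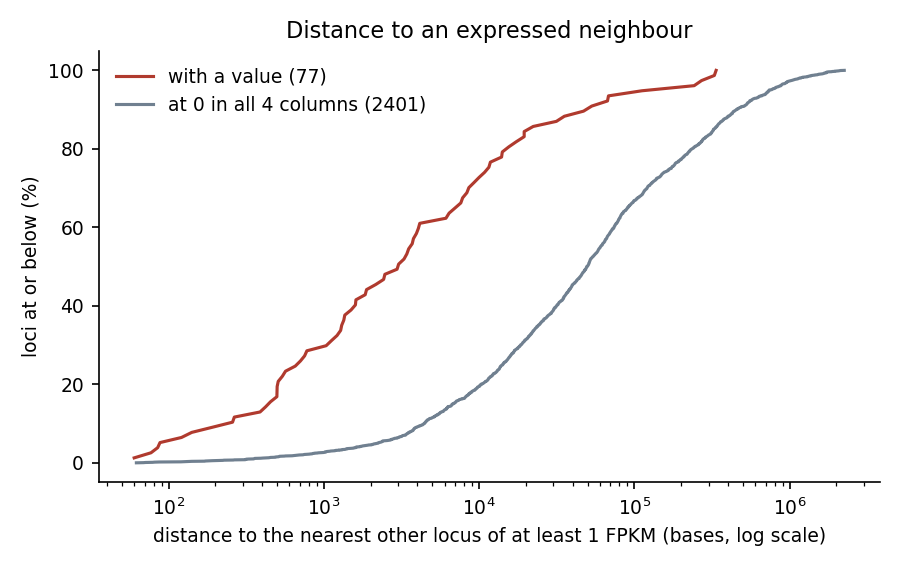
Cumulative share of loci (%) against the distance in bases (log scale) to the nearest locus outside the set with at least 1 FPKM in the wild type, in red for the 77 loci with a value and in grey for the 2401 at 0. The red curve reaches 28.6% at 1000 bases, where the grey curve stands at 2.67%.

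By chromosome, values were listed for 14 of 238 tiny loci on chromosome 1, 7 of 82 on chromosome 17 and 3 of 28 on chromosome 21, the highest share at 10.7%. Chromosome 14 had 1 of 178, and chromosome 18 had 0 of 55, which allows a share of up to 3 in 55. Of the 178 loci on chromosome 14, 67 were no longer than 60 bases, a size at which no locus of the set had a value. These counts carry no test, and loci such as the run on chromosome 17 are close neighbours.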

How the data were processed

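RNA-seq values of 6 libraries were used, and 8 ChIP libraries were left out because no comparison here needs them. Per the file headers, FPKM per transcript and group was deposited by the authors in a tracking table, with bounds. Per the file headers, the deposited tests give, for each transcript, FPKM, a log2 fold, a test statistic (a score), a p-value and a q-value. The submitters' processing notes name TopHat, Cuffdiff, Bowtie 1.1.2 and hg19; annotation: not given in the sources used here. Library totals cannot be read from FPKM, so only steps are given. Positions are the files' own, with 1 added to each start.

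Loci and lists were chosen with earlier results of these data known, and the step series were found after the data were seen. Loci named by rule were each called locus, the 10 of highest mean FPKM, the 5 widest differences in each direction by log2(FPKM + 1) among loci above 0 in both groups, and the 5 highest tracking values among loci at 0 in the knockout test column. Folds in the text are ratios of test-table FPKM without a pseudocount. Calls use the authors' q-value at 0.05. Steps were solved per locus as whole numbers of each series. On simulated loci of up to 3, up to 15 and up to 25 steps a series, 500 of each, 100% were recovered in both groups, and on 500 of up to 40 steps 76.6% of wild type and 100% of knockout values were. The simulation used the same units, so it tests the solving of steps and not the units. Alternatives covered the length limit, left-out regions, table, test status, detection level, pseudocount, low-value filter, q threshold, tolerance and each step series. Python 3.11.15, pandas 2.3.3, numpy 2.4.6, scipy 1.17.1 and matplotlib 3.10.9 were used.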

Additional observations from a re-analysis of the deposited data

How the results depend on the processing

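No paired analysis was possible because the files hold 1 value per group and none per library, and for the same reason no replicate could be left out. Of 61 values recomputed for 10 results under 20 alternatives, 40 stayed within 1.5 times the reported value (for the median log2 fold, within that ratio on the linear scale) and 21 did not. The median log2 fold of -0.01 is near 0 and its sign is not stable: with the tracking table it was 0.20. With a limit of 100 bases the loci of at least 1 FPKM numbered 38 in the wild type and 20 in the knockout, those at 0 were 21 in the knockout alone, 3 in the wild type alone and 1342 in both, 0 were called higher (the called locus is longer), and the median log2 fold was 0.60. With 150 bases the knockout had 52 loci of at least 1 FPKM, 9 were at 0 in the wild type alone, 1 was called lower and 5 had agreeing knockout columns. With the left-out regions and chromosome X kept, 1 was called lower and 3 agreed. The tracking table had 8 at 0 in the wild type alone. Among tested loci 42 had at least 1 FPKM in the wild type, 16 were at 0 in the knockout alone and 0 in both. Detection at 10 FPKM left 39 in the wild type. A pseudocount of 1 with zeros included gave a median of -2.38, since loci at 0 enter it. A tolerance of 25% gave 3 agreeing loci. Leaving out 1 step series at a time, added after the data were seen, gave 52 to 61 loci in the wild type and 15 to 22 in the knockout, the lowest without series e. Causes were not tested beyond what the fewer or added loci show. Few steps limit the precision: 61.2% of resolved wild type values and 35.0% of knockout values rested on 3 or fewer.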

Other observations

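Loci of the same size outside the set gave values of the same kind. On chromosome X, 8 of 183 loci of at most 120 bases with 1 transcript had a value (4.37%), 7 in the wild type and 4 in the knockout of the table of tests, and 0 were called in the authors' deposited table. In the left-out regions on chromosomes 7, 14 and 15, 2 of 54 such loci had a value, both in the wild type, and 1 was called. Each of these 8 and 2 loci could be written as whole steps of the same 6 series.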
